A study of Mus musculus with 12 samples.

Results

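Hemoglobin mRNA in a piece of solid tissue is commonly read as a measure of the blood it held. The 5 genes described here were the adult alpha globin genes Hba-a1 and Hba-a2, the adult beta globin genes Hbb-bs and Hbb-bt, and Alas2. They were found by matching these symbols to the Ensembl identifiers of the deposited tables, and all 5 had a row among 47069 genes. Intracranial B16 F1 melanoma tumors, grown from 100000 cells of this mouse melanoma line implanted into the brain of C57BL/6 mice, were taken on day 9 and profiled by bulk RNA sequencing in 12 libraries. Groups were defined by whether the mouse also carried an extracranial tumor and by what it was given, and the series title names anti-PD-1 and anti-CTLA-4 antibodies as the treatment in question. The groups were mice with both tumors given anti-PD-1 plus anti-CTLA-4 (called therapy below), mice with both tumors given IgG, mice with an intracranial tumor only given therapy, and mice with an intracranial tumor only given IgG, with 3 libraries each. The series text calls these biological triplicates, the labels give no batch, and sex, age and any perfusion of the animals are not given in the sources used here.

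Hemoglobin is a tetramer of alpha and beta chains, each holding a heme. Developing red cells make globin mRNA in very large amounts, lose their nucleus, and as reticulocytes still carry that mRNA into the circulation, while mature red cells hold little. Alas2 is the erythroid form of aminolevulinate synthase, the first enzyme of heme synthesis, and Alas1 is the form used in other tissues. C57BL/6 mice carry the Hbb s haplotype, in which both adult beta genes are near copies of each other. The transcription factors KLF1 and GATA1 act at erythroid promoters.

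On GRCm38, Hba-a1 (ENSMUSG00000069919) lies at chr11:32283511-32284465 and Hba-a2 (ENSMUSG00000069917) at chr11:32296489-32297298, both on the plus strand. Hbb-bs (ENSMUSG00000052305) lies at chr7:103826534-103828096 and Hbb-bt (ENSMUSG00000073940) at chr7:103812524-103813996, both on the minus strand. Alas2 (ENSMUSG00000025270) lies at chrX:150547375-150570638 on the plus strand. The copies share sequence, which limits how reads can be split between them. Of all stretches of 100 bases in the main coding transcript, 56.5% for Hba-a1 and 74.5% for Hba-a2 also occur in the partner's transcripts, as do 62.6% for Hbb-bs and 54.8% for Hbb-bt. Alas2 has no such partner, and its stretches were not compared with those of the globin genes. Values of single globin copies are therefore uncertain, and sums of copies are given beside them.

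The promoters of the 5 genes are shown because their levels moved together across libraries, as described below. Each line holds the 140 bases before the RefSeq transcription start (GRCm38.p6), 5′ to 3′ on the gene's own strand, with matches to 4 motifs on either strand in capitals. The first motif was the letters CACCC, which KLF1 is known to bind. The second was the CCAAT box, known from many promoters with that name. The third was the TATA box, searched for here as the letters TATAA alone. The fourth was the motif that GATA1 is known for, searched for here as the letters GATAA alone. A match on the other strand shows as the reverse complement of these letters in the printed line. Neighbouring matches run together in capitals where they touch or share bases. The windows are Hba-a1 chr11:32283532-32283671, Hba-a2 chr11:32296352-32296491, Hbb-bs chr7:103827929-103828068, Hbb-bt chr7:103813924-103814063 and Alas2 chrX:150547277-150547416. The RefSeq starts differ from the starts of the GENCODE gene positions given above. By those positions the Hba-a1 and Hbb-bs windows lie within the genes, and the Hba-a2, Hbb-bt and Alas2 windows overlap them in part.
Hba-a1: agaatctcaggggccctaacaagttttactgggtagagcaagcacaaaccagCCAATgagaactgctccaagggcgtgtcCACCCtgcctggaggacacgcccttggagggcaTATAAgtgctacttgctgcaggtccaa
Hba-a2: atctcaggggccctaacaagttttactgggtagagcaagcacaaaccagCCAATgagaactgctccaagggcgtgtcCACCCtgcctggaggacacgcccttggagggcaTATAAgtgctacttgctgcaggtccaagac
Hbb-bs: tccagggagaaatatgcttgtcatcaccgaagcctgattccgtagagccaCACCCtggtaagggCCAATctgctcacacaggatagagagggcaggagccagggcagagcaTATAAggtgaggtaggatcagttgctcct
Hbb-bt: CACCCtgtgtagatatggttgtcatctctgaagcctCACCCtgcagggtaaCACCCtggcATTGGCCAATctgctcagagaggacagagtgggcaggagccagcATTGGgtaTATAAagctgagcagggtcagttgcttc
Alas2: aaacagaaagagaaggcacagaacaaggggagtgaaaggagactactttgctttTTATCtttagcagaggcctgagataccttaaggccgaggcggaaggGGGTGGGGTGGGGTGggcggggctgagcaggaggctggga

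All 4 globin windows held the CACCC motif, the CCAAT box and the TATA box, and none held the GATA1 motif. The TATA box began 27, 30, 29 and 28 bases before the start in Hba-a1, Hba-a2, Hbb-bs and Hbb-bt. The Alas2 window held 3 matches to the CACCC motif and 1 to the GATA1 motif, all on the other strand, and neither of the remaining motifs. Among 32841 RefSeq promoters cut to the same 140 bases, 35.6% held the CACCC motif, 23.4% the CCAAT box, 13.5% the TATA box and 12.4% the GATA1 motif. The Hba-a1 and Hba-a2 windows were identical over 137 of 137 aligned bases, and those of Hbb-bs and Hbb-bt over 100 of 139. A match is a run of letters, not a shown binding site.

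Library totals ran between 18427495 and 22294182 counts, and the melanocyte markers of the labelled cell type, such as Dct at 7552 to 11130 CPM and Pmel at 4612 to 8178 CPM, were high in all 12 libraries. A globin level in a bulk sample is set by how many red cells it held and how much globin mRNA each kept, and these cannot be told apart here. Hbb-bs was the globin gene with the most reads, 71.0% of the 5441 globin reads of the series. The spread between libraries was very wide: 51.6% of all globin reads came from 1 library, intracranial-only IgG replicate 1, and the sum of the 4 globin genes differed 235.3-fold between the highest and the lowest library. Even in the highest library, globin reads were 0.0146% of the total.

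Hbb-bs stood at 2.79, 3.44 and 9.18 counts scaled to library size (CPM) in both tumors with therapy and at 6.11, 10.02 and 0.517 CPM in both tumors with IgG. In intracranial-only tumors it stood at 4.06, 14.7 and 0.897 CPM with therapy and at 107.8, 8.81 and 31.4 CPM with IgG. The 2 highest libraries were both intracranial-only IgG, but the third library of that group lay below 1 library of each of the other 3 groups, so no group was set apart. Group means of Hbb-bs were 5.14 ± 3.52 CPM in both tumors with therapy, 5.55 ± 4.78 CPM in both tumors with IgG, 6.56 ± 7.25 CPM in intracranial-only tumors with therapy and 49.3 ± 51.9 CPM in intracranial-only tumors with IgG (SD, n = 3 each). In 2 of these groups the SD exceeded the mean. Ordered by mean, intracranial-only IgG came first, then intracranial-only therapy, both tumors with IgG and both tumors with therapy, and no neighbours in that order differed beyond their spread.

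Hba-a1 stood at 0.568, 0.354 and 2.62 CPM in both tumors with therapy and at 1.503, 1.65 and 0.0517 CPM in both tumors with IgG. It stood at 1.03, 2.84 and 0.449 CPM in intracranial-only tumors with therapy and at 17.1, 1.30 and 5.48 CPM in intracranial-only tumors with IgG. Its highest and lowest libraries were those of Hbb-bs, and the groups overlapped. Hba-a2 followed, at 0.426, 0.455 and 1.88 CPM in both tumors with therapy and at 1.16, 1.16 and 0 CPM in both tumors with IgG. In intracranial-only tumors Hba-a2 stood at 0.541, 2.05 and 0.0897 CPM with therapy and at 14.3, 0.522 and 4.67 CPM with IgG. The library without a Hba-a2 read, both-tumors IgG replicate 3, was also the lowest for Hbb-bs, and a count of 0 there allows up to 0.155 CPM (3 reads). Such intervals and limits cover counting error only.

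Hbb-bt, the second adult beta gene, stood at 0.474, 0.556 and 2.25 CPM in both tumors with therapy and at 0.776, 1.02 and 0.0517 CPM in both tumors with IgG. In intracranial-only tumors it stood at 0.649, 1.32 and 0.0449 CPM with therapy and at 6.87, 0.730 and 4.23 CPM with IgG. The order of libraries was again close to that of Hbb-bs. Alas2, the heme synthesis gene, was read least, at 0.189, 0.303 and 1.47 CPM in both tumors with therapy and at 0.825, 0.387 and 0.0517 CPM in both tumors with IgG. In intracranial-only tumors Alas2 stood at 0.541, 1.53 and 0.0897 CPM with therapy and at 4.79, 0.365 and 1.41 CPM with IgG. Its lowest library rests on 1 read and its highest on 92. Between the highest and lowest library, levels differed 330.0-fold for Hba-a1, 208.4-fold for Hbb-bs, 153.1-fold for Hbb-bt and 92.56-fold for Alas2, with the lowest value of Hba-a1, Hbb-bt and Alas2 resting on 1 read.

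**Figure D1:**
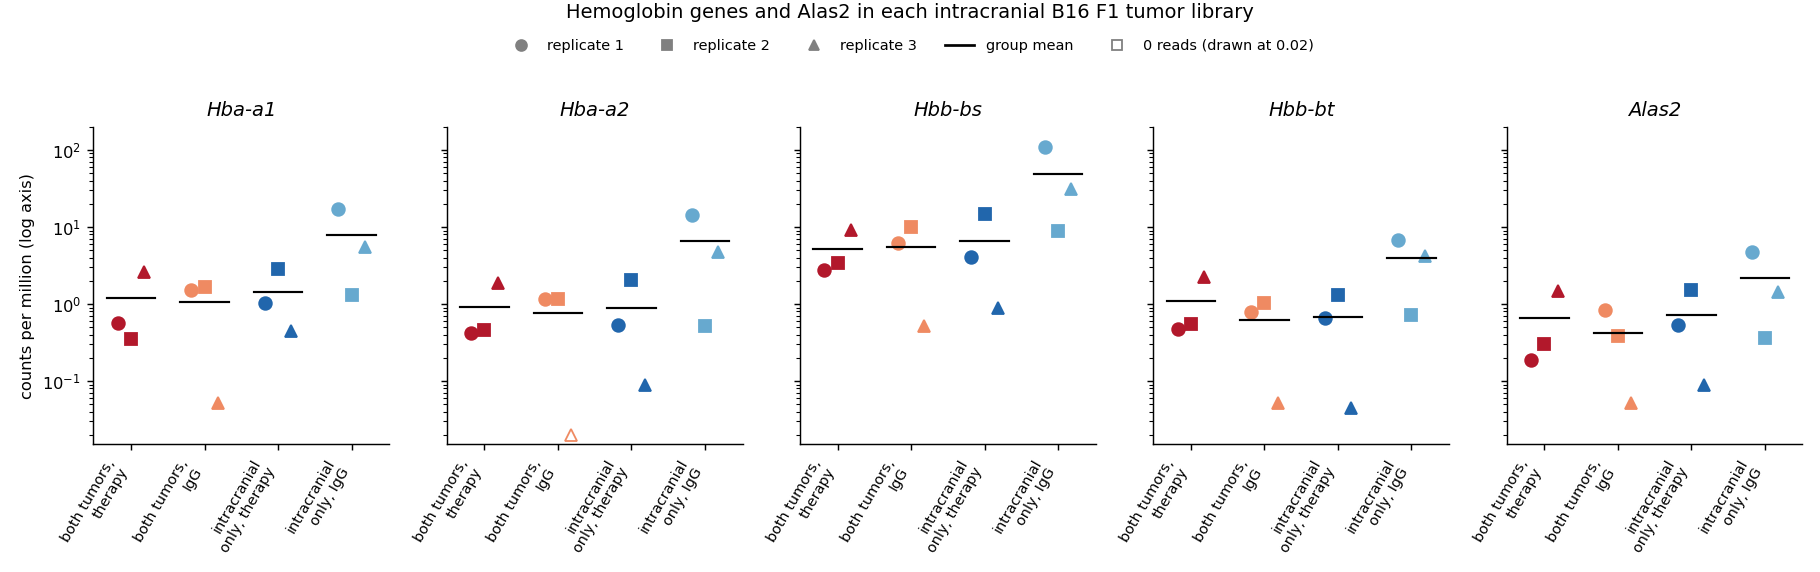
Level of each gene in CPM (log axis) in the 12 libraries, by group; points are libraries, shapes are replicate numbers and bars are group means. Intracranial-only IgG replicate 1 is highest and both-tumors IgG replicate 3 or intracranial-only therapy replicate 3 lowest in all 5 panels, and the groups overlap.

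Per length, as deposited FPKM, Hbb-bs averaged 8.89 ± 6.08 in both tumors with therapy, 9.60 ± 8.27 in both tumors with IgG, 11.4 ± 12.5 in intracranial-only tumors with therapy and 85.3 ± 89.7 in intracranial-only tumors with IgG (SD, n = 3 each). Over all 12 libraries the mean FPKM was 28.8 for Hbb-bs, 4.87 for Hba-a1, 4.34 for Hba-a2, 2.25 for Hbb-bt and 0.799 for Alas2. Hbb-bs was the highest of the 5 in FPKM in every library, and Alas2 was the lowest except in both-tumors IgG replicate 3 and intracranial-only therapy replicate 3. Within a library, Hbb-bs had rank 623 by FPKM in intracranial-only IgG replicate 1 and rank 13348 in both-tumors IgG replicate 3.

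The balance of the chains varied less than their level. Alpha reads were 23.3%, 16.8% and 28.2% of the globin reads in both tumors with therapy and 27.9%, 20.3% and 8.33% in both tumors with IgG. They were 25.0%, 23.4% and 36.4% in intracranial-only tumors with therapy and 21.5%, 16.1% and 22.2% in intracranial-only tumors with IgG. The extremes were the libraries with the fewest reads: 8.33% rests on 12 globin reads (Wilson 95% interval 1.49% to 35.4%) and 36.4% on 33 (22.2% to 53.4%). The library with the most globin reads (2806), intracranial-only IgG replicate 1, gave 21.5% (20.01% to 23.05%), and all 12 libraries pooled gave 22.2%. Hbb-bt took a median of 10.2% of the beta reads of a library.

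Alas2 as a share of the reads of the 5 genes was 4.26%, 5.94% and 8.44% in both tumors with therapy and 7.94%, 2.72% and 7.69% in both tumors with IgG. It was 7.94%, 6.79% and 5.71% in intracranial-only tumors with therapy and 3.18%, 3.11% and 2.99% in intracranial-only tumors with IgG. The intracranial-only groups did not overlap in this share, with the therapy libraries higher, while the groups with both tumors did overlap. The interval of the therapy library with 35 reads ran between 1.58% and 18.6%, which spans all values of the IgG group, and the share was not tested between groups.

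**Figure D2:**
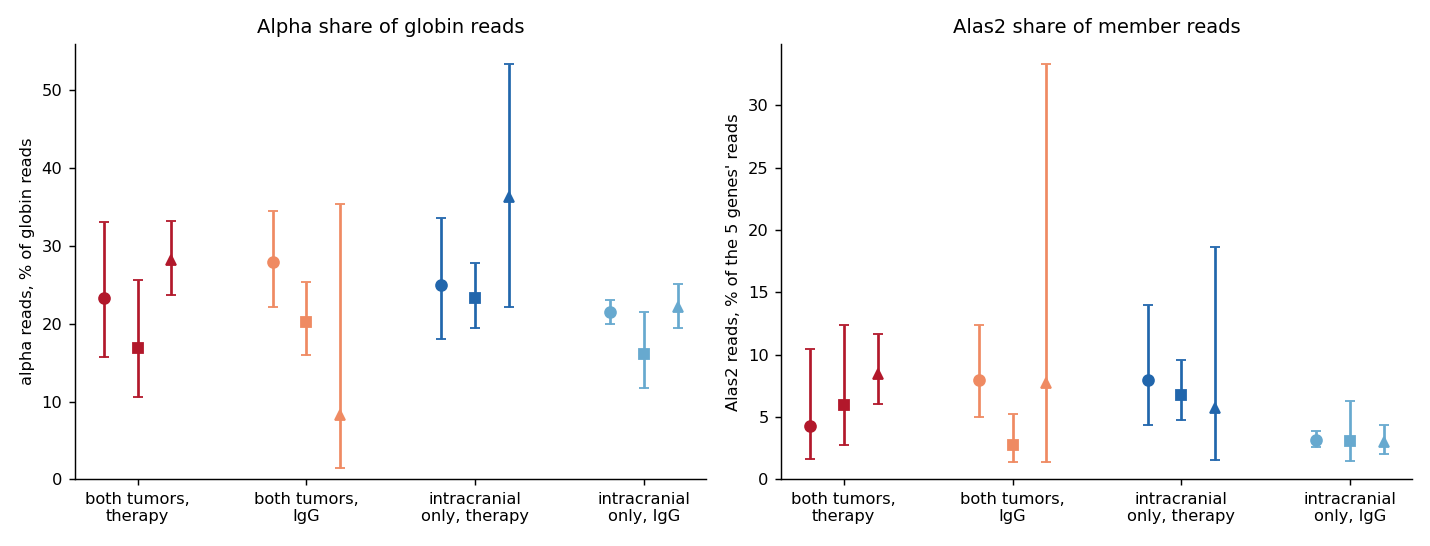
Left, alpha globin reads as a percentage of globin reads; right, Alas2 reads as a percentage of the reads of the 5 genes; points are libraries by group and bars are Wilson 95% intervals (counting error only). The alpha share centres near the pooled 22.2% with wide intervals in sparse libraries, and the Alas2 share of the 3 intracranial-only IgG libraries lies between 2.99% and 3.18%.

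In both tumors, therapy against IgG asked what the antibodies did where an extracranial tumor was present. None of the 5 genes passed the test of a difference: 0 of 5 passed edgeR's quasi-likelihood test at a Benjamini-Hochberg adjusted p under 0.05, where 5.39% of 15925 genes tested did (1.24% higher and 4.14% lower), and 0 of 5 had an unadjusted p under 0.05. Over all 15925 genes tested, 5317 had an unadjusted p under 0.05 by edgeR. DESeq2 also called 0 of 5, where it called 3103 of all genes. The log2 fold change of Hbb-bs, therapy over IgG, was -0.15 ± 1.17 (SE), with a 95% interval of -2.74 to 2.43. Those of the others were 0.11 for Hba-a1, 0.22 for Hba-a2, 0.79 for Hbb-bt and 0.61 for Alas2, with SEs of 1.147 to 1.368. The median of the 5 was 0.22 against 0.02 over all genes tested. The interval of Hbb-bs allows changes of more than 2 log2 units either way, so the data do not show that the levels were alike.

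In intracranial-only tumors, therapy against IgG gave lower fitted values for all 5 genes, and none passed. The log2 fold change of Hbb-bs was -2.87 ± 1.23 (SE; 95% interval -5.58 to -0.16; adjusted p = 0.335 by edgeR's quasi-likelihood test). Hba-a1 was at -2.43, Hba-a2 at -2.82, Hbb-bt at -2.52 and Alas2 at -1.57, with adjusted p between 0.381 and 0.62 in the same edgeR test. The count of calls was 0 of 5 by edgeR, with 1 of 5 at an unadjusted p under 0.05, and 0 of 5 by DESeq2, where 0% of all genes tested passed by edgeR, 2152 had an unadjusted p under 0.05 and DESeq2 called 1025. The median of the 5 was -2.52, against -0.03 over all genes tested. 1 library weighed heavily: without intracranial-only IgG replicate 1, Hbb-bs was at -1.55, Hba-a1 at -1.17, Hba-a2 at -1.47, Hbb-bt at -1.83 and Alas2 at -0.25. Without intracranial-only therapy replicate 2, Hba-a2 was at -4.33 and Alas2 at -2.76.

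Both tumors against intracranial only, under IgG, asked what the extracranial tumor changed without therapy. Fitted values of all 5 genes were lower where both tumors were present, and none passed. Hbb-bs was at -3.13 ± 1.24 on the log2 scale (SE; 95% interval -5.87 to -0.39), with an unadjusted p of 0.0288 that ranked 84 of 15925 and an adjusted p of 1 by edgeR's quasi-likelihood test. Hba-a1 was at -2.88, Hba-a2 at -3.04, Hbb-bt at -2.65 and Alas2 at -2.36. By edgeR 0 of 5 passed, with 3 of 5 at an unadjusted p under 0.05, and by DESeq2 0 of 5, where 0% of all genes tested passed by edgeR, 188 had an unadjusted p under 0.05 and DESeq2 called 0. The median of the 5 was -2.88, against 0.01 over all genes tested. Without intracranial-only IgG replicate 1 the values were -1.81 for Hbb-bs, -1.62 for Hba-a1, -1.69 for Hba-a2, -1.96 for Hbb-bt and -1.04 for Alas2. This comparison shares its intracranial-only IgG libraries with the preceding one.

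Under therapy, both tumors against intracranial only gave values near 0 for the globin genes while many other genes differed. Hbb-bs was at -0.42 ± 1.17 (SE; 95% interval -3.00 to 2.17; adjusted p = 0.793 by edgeR's quasi-likelihood test), Hba-a1 at -0.34, Hba-a2 at -0.01, Hbb-bt at 0.66 and Alas2 at -0.18. By edgeR 0 of 5 passed, where 45.4% of all genes tested passed (24.4% higher and 21% lower). An unadjusted p under 0.05 by edgeR was reached by 0 of 5, and by 8588 of all 15925 genes tested. DESeq2 called 0 of 5, and 7592 of all genes. Their median was -0.18 against 0.03 over all genes. The therapy effect in both tumors minus that in intracranial-only tumors, the interaction, was 2.72 ± 1.66 for Hbb-bs (SE; adjusted p = 0.244 by edgeR's quasi-likelihood test), 2.54 for Hba-a1, 3.04 for Hba-a2, 3.31 for Hbb-bt and 2.18 for Alas2. Again 0 of 5 passed by edgeR, where 22% of all genes tested passed (12.1% above 0 and 9.93% below). At an unadjusted p under 0.05 by edgeR were 0 of 5, and 6281 of all 15925 genes tested. DESeq2 called 0 of 5 for the interaction, and 4715 of all genes. Without intracranial-only IgG replicate 1 the interaction of Hbb-bs was 1.39, and without intracranial-only therapy replicate 2 it was 4.12.

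Summing the copies left the picture as it was. The summed alpha row had log2 fold changes of 0.16 for therapy in both tumors, -2.59 for therapy in intracranial-only tumors, -2.95 for both tumors against intracranial only under IgG and -0.21 under therapy. The summed beta row had -0.03, -2.84, -3.09 and -0.28 in the same order, and neither row passed edgeR's quasi-likelihood test. Libraries of 1 group differed widely in these genes: the biological coefficient of variation of the 5 genes ran between 92.5% for Hbb-bs and 111% for Hba-a2, against a common value of 33.5% over all genes.

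**Figure D3:**
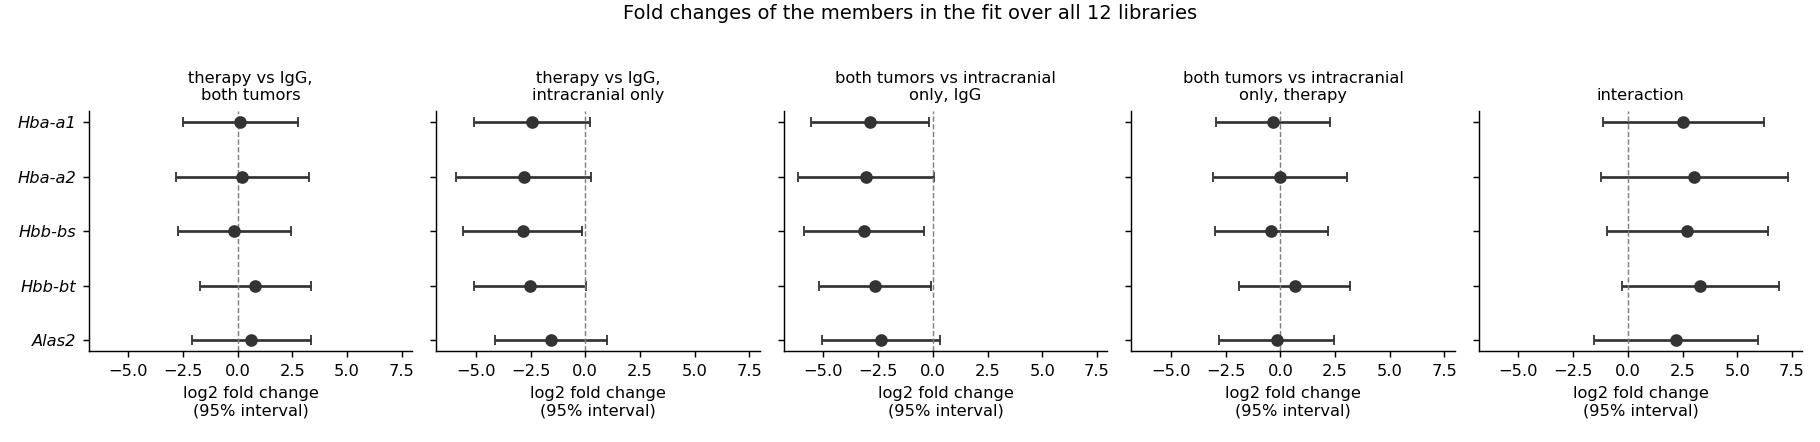
Log2 fold change (point) and 95% interval (bar) of each gene in the 5 comparisons, from the fit over all 12 libraries; the dashed line marks 0. All 5 genes lie below 0 in intracranial-only therapy against IgG and in both tumors against intracranial only under IgG, and around 0 in the other pairwise comparisons, and none passed the adjusted threshold.

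The 5 genes moved together across the 12 libraries. On log2 CPM with a prior count of 2, Hbb-bs correlated with Hba-a2 at Pearson's r = 0.978 and Spearman's rho = 0.972, with Hbb-bt at 0.967 and 0.965, and with Hba-a1 at 0.966 and 0.965 (permutation p = 1e-05, the smallest 100000 resamples can give, and 3e-05 adjusted over 9 relations). With Alas2, r was 0.928 and rho 0.895 (permutation p adjusted over 9 relations 9e-05 and 0.00063). The Alas2 sequence was not compared with those of the globins. Leaving out the 2 libraries farthest from the median of Hbb-bs, both-tumors IgG replicate 3 and intracranial-only IgG replicate 1, r was 0.943 with Hba-a2, 0.94 with Hbb-bt, 0.909 with Hba-a1 and 0.836 with Alas2. After subtracting group means, r was 0.98, 0.969, 0.959 and 0.932 in that order, so the relation held within groups. Reads shared between copies can enter the values among globins, and their part was not tested.

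**Figure D4:**
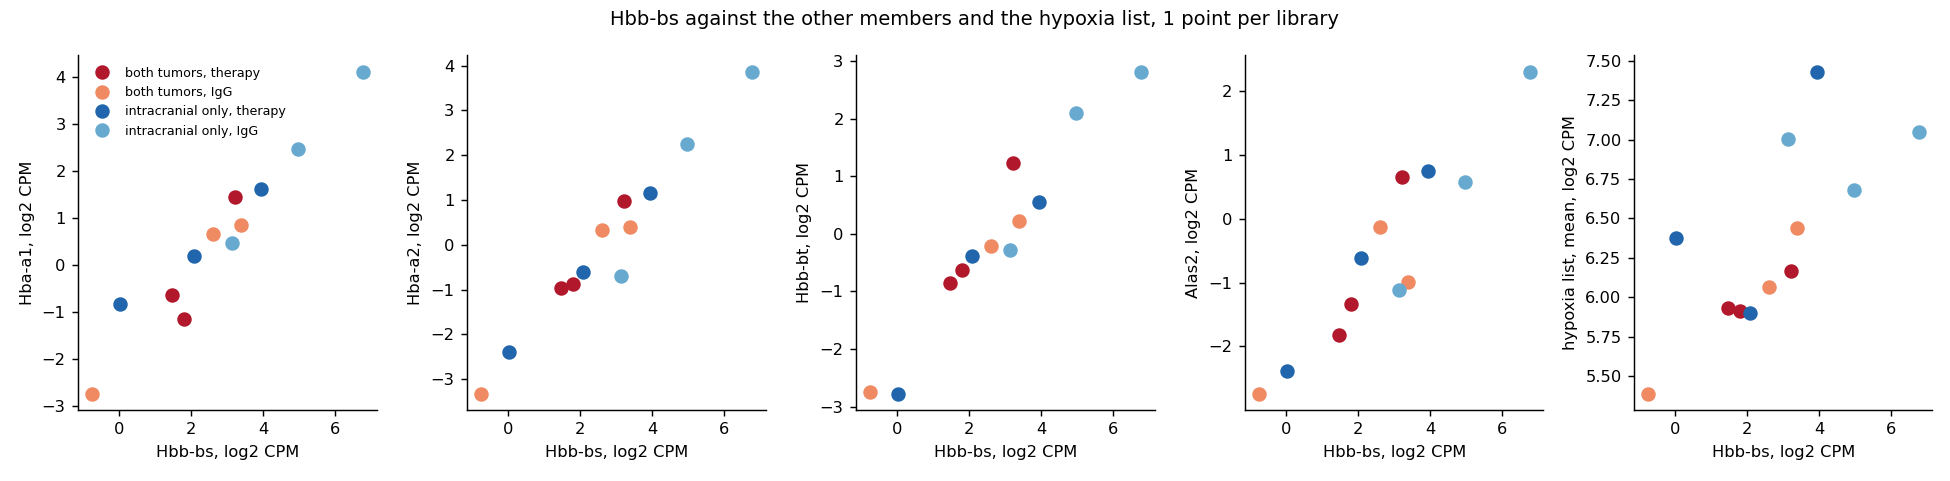
Each of the other 4 genes, and the mean of the hypoxia list, against Hbb-bs in log2 CPM; points are the 12 libraries, coloured by group. The 4 genes rise with Hbb-bs along the whole range (r between 0.928 and 0.978), and libraries of different groups mix along each line.

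Among 15924 other genes tested, Hba-a2, Hbb-bt, Hba-a1 and Alas2 were in that order the 4 whose pattern was most like that of Hbb-bs. The next 10 by Pearson's r over the 12 libraries were Fabp1 (0.917), Gm7286 (0.905), Ss18 (0.877), Ces1c (0.867), Apoa5 (0.864), 1600014C23Rik (0.862), Cyp2c29 (0.861), Gm11185 (0.857), Dll4 (0.834) and Serpina1e (0.828), given as a description without a test. Fabp1, Ces1c, Apoa5, Cyp2c29 and Serpina1e are known mainly from the liver. Their ranges were far narrower than that of Hbb-bs: Fabp1 ran between 2.47 and 7.08 CPM and Apoa5 between 0.897 and 4.01 CPM. A list of 18 liver genes, added after these names were seen, summed to 159.7, 160.4 and 166.0 CPM in both tumors with therapy and to 171.1, 168.6 and 151.5 CPM in both tumors with IgG. It summed to 174.2, 192.3 and 115.4 CPM in intracranial-only tumors with therapy and to 344.0, 280.7 and 173.8 CPM in intracranial-only tumors with IgG. All 18 had reads in every library, and their part in the members' values was not tested. The sum differed 2.98-fold between the highest and lowest library, against 208.4-fold for Hbb-bs.

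Several other red cell genes were at or near 0, while others of the same lists were not. Over all 12 libraries together, Slc4a1 (the anion exchanger band 3) had 15 reads, Rhag 3 and Kel 0. Among erythroid transcription factors Gata1 had 20 reads, Klf1 121 and Gfi1b 0, and among late erythroid genes Hemgn had 14, Car1 5 and Trim58 5. The embryonic globin genes Hba-x, Hbb-y and Hbb-bh2 had 0 reads and Hbb-bh1 had 2. Tfrc, Zfpm1 and Lmo2 of the erythroid regulators had 76675, 6251 and 2387 reads. The 11 red cell membrane genes held 4 that passed the filter on low counts: Sptb, Ank1, Rhd and Tspan33, with 1420, 650, 1606 and 603 reads. Their mean log2 CPM had no detectable relation to Hbb-bs (r = 0.094, rho = -0.035; permutation p adjusted over 9 relations 0.806 and 0.922).

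Sptb (beta spectrin) and Ank1 (ankyrin), which brain also expresses, were higher in both tumors than in intracranial-only tumors under therapy, by 3.91 ± 0.70 and 2.90 ± 0.57 on the log2 scale (SE; adjusted p = 0.00455 and 0.00469 by edgeR's quasi-likelihood test). Sptb stood at 7.53, 15.7 and 14.1 CPM in both tumors with therapy, against 0.703, 0.842 and 0.807 CPM in intracranial-only tumors with therapy. The neuron marker Snap25 moved beside them, at 63.4, 231.5 and 206.7 CPM in both tumors with therapy, against 2.11, 0.368 and 0.493 CPM in intracranial-only tumors with therapy. All 7 neuron markers were higher in that comparison, where 24.4% of all genes tested were. The part of these markers in the result was not tested. In both-tumors IgG replicate 2 Snap25 stood at 1.21 CPM, against 67.3 and 124.0 CPM in the other 2 libraries of that group. Its sample name also ends in a different suffix than those of all other libraries, and the labels do not say what that means. Neuron list levels fell into separate clusters of 8 and 4 libraries, and within the 8 no relation to Hbb-bs was detected (r = -0.2, permutation p = 0.656).

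The sum of the heme synthesis genes beyond Alas2 varied less between libraries than the globins. The 8 ubiquitous genes of the pathway, such as Alas1, Cpox and Fech, summed to 296.3 to 342.0 CPM in both tumors with therapy, 337.0 to 355.9 CPM in both tumors with IgG, 340.2 to 356.1 CPM in intracranial-only tumors with therapy and 341.7 to 348.0 CPM in intracranial-only tumors with IgG. Under therapy, 3 of 8 were lower in both tumors than in intracranial-only tumors and 0 were higher. Over all genes tested, 21% were lower and 24.4% higher, and the list was not tested as a set. Among the 3 were Cpox (coproporphyrinogen oxidase) at -0.85 and Alad (aminolevulinate dehydratase) at -0.43 on the log2 scale (adjusted p = 0.0324 and 0.0493 by edgeR's quasi-likelihood test). The median of the 8 was -0.14, against 0.03 over all genes. In the other 3 pairwise comparisons 0 of 8 passed by edgeR's quasi-likelihood test, with 3, 0 and 0 at an unadjusted p under 0.05 for therapy in both tumors, therapy in intracranial-only tumors and both tumors under IgG. Of all 15925 genes tested, 5317, 2152 and 188 had an unadjusted p under 0.05 in the same order.

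Of 7 erythroid regulators tested, Tfrc, the transferrin receptor that takes up iron in many dividing cells, fell with therapy in both tumors by 1.48 on the log2 scale (adjusted p = 0.0498 by edgeR's quasi-likelihood test), and 0 of 7 rose. Tfrc stood at 178.1, 106.5 and 100.3 CPM in both tumors with therapy, against 365.6, 443.1 and 235.4 CPM in both tumors with IgG, with no overlap. Under therapy, Nfe2 (2.62) and Lmo2 (2.48) were higher and Tfrc (-1.95) and Zfpm1 (-0.51) lower in both tumors than in intracranial-only tumors, 4 of 7 in all, where 45.4% of all genes tested passed. Of 13 late erythroid and reticulocyte genes, Xpo7 fell with therapy in both tumors by 0.48 on the log2 scale (adjusted p = 0.0498 by edgeR's quasi-likelihood test), and 0 rose. Over all genes tested, 4.14% fell and 1.24% rose with therapy in both tumors. Under therapy, Car2 (2.38) and Mkrn1 (0.38) were higher and Xpo7 (-0.61), Abcb6 (-1.12) and Abcb10 (-0.45) lower in both tumors, 5 of 13 in all. The shares of 4 of 7 and 5 of 13 lie near that of all genes and are no result about these lists. Nor are the single calls with therapy in both tumors. Prdx2 and Mkrn1, among the most abundant of this list, are also made outside red cells.

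Genes that clear hemoglobin and heme were abundant. Hmox1, heme oxygenase 1, stood at 125.4, 135.1 and 413.2 CPM in both tumors with therapy and at 112.6, 149.2 and 76.1 CPM in both tumors with IgG. It stood at 79.7, 202.8 and 127.5 CPM in intracranial-only tumors with therapy and at 443.1, 205.6 and 163.5 CPM in intracranial-only tumors with IgG. In each of the 4 groups the library highest in Hbb-bs was also the highest in Hmox1, and no Hmox1 comparison passed edgeR's quasi-likelihood test. Of 12 genes of this list tested, 3 rose with therapy in both tumors and 0 fell: Lrp1, the hemopexin receptor, by 1.21, Blvrb (biliverdin reductase B) by 1.04 and Slc48a1 (a heme transporter) by 0.56 on the log2 scale (adjusted p = 0.0498 each by edgeR's quasi-likelihood test), where 1.24% of all genes tested rose. Under therapy, 5 of 12 were higher in both tumors than in intracranial-only tumors (Lrp1, Blvrb, Slc48a1, the iron exporter Slc40a1 and the ferritin heavy chain Fth1) and Blvra was lower, where 24.4% of all genes tested were higher and 21% lower. Markers of brain cells moved beside this list: the 5 oligodendrocyte markers had a median log2 fold change of 2.23 and the 5 astrocyte markers 1.48 for therapy in both tumors, with 0 past the adjusted threshold in edgeR's quasi-likelihood test and 5 and 3 at an unadjusted p under 0.05. Under therapy, 5 of 5 oligodendrocyte and 4 of 5 astrocyte markers were higher in both tumors than in intracranial-only tumors. The oligodendrocyte markers summed to 679.0 to 1524 CPM in both tumors with therapy, 169.6 to 754.5 CPM in both tumors with IgG, 155.2 to 236.3 CPM in intracranial-only tumors with therapy and 257.9 to 499.7 CPM in intracranial-only tumors with IgG. Their part in the result was not tested. Medians of the list were 0.30 for therapy in both tumors and 0.39 for both tumors under therapy, against 0.02 and 0.03 over all genes. Calls of therapy in both tumors were few and unstable: all genes together gave 858 calls in the fit and 0 with RLE size factors.

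**Figure D5:**
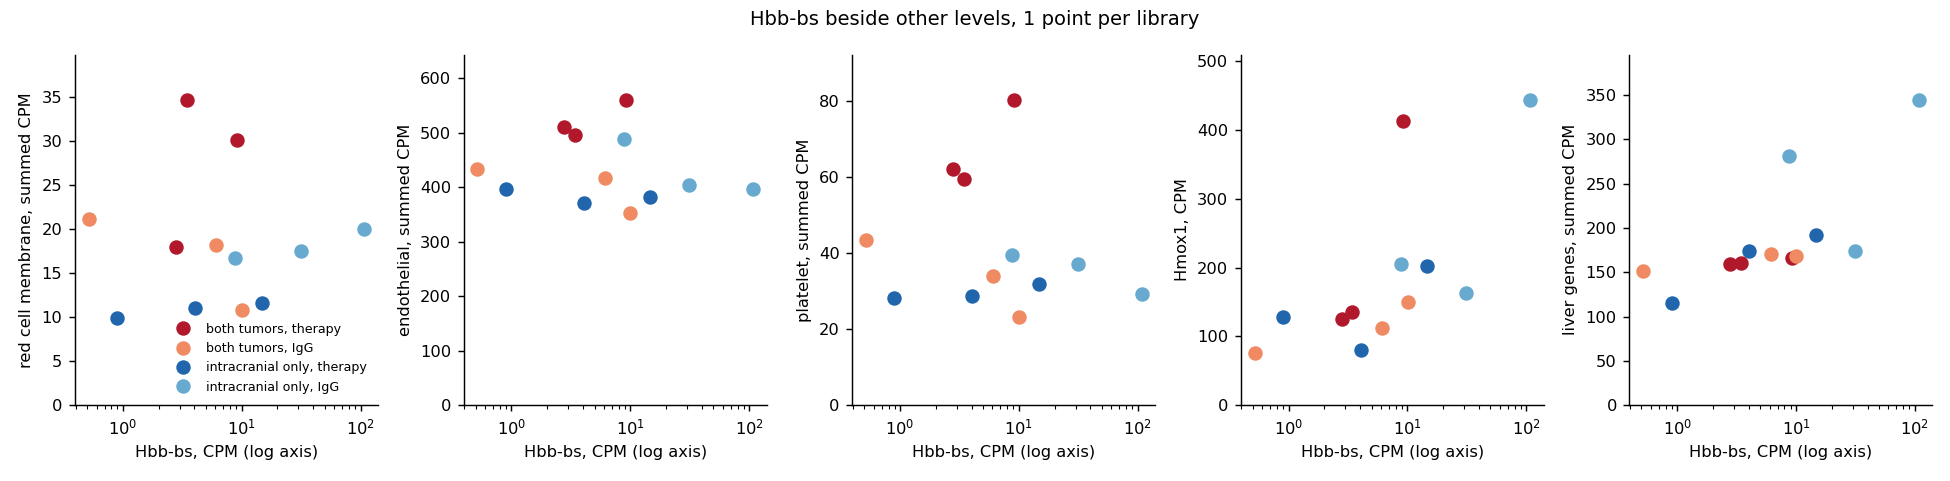
Summed CPM of the red cell membrane, endothelial, platelet and liver lists, and CPM of Hmox1, against Hbb-bs (CPM, log axis) in the 12 libraries, coloured by group. Red cell membrane, endothelial and platelet sums show no common course with Hbb-bs, and the library highest in Hbb-bs is also highest in Hmox1 and in the liver sum. Most of the platelet sum (23.15 to 80.19 CPM) is Itgb3 (17.63 to 73.76 CPM).

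Vessel and platelet genes had no detectable relation to the globins either. The mean log2 CPM of the 12 endothelial genes had r = 0.138 and rho = 0.084 with Hbb-bs, and that of the platelet genes r = 0.079 and rho = 0.084 (permutation p adjusted over 9 relations 0.806 and 0.922 for both lists). Endothelial genes summed to 496.7 to 559.7 CPM in both tumors with therapy, 352.2 to 432.7 CPM in both tumors with IgG, 371.4 to 397.7 CPM in intracranial-only tumors with therapy and 396.6 to 488.9 CPM in intracranial-only tumors with IgG. Only 4 of 12 platelet genes passed the filter, and Ppbp had 27 and Gp9 17 reads in all. Among those that passed, Itgb3 stood at 17.63 to 73.76 CPM and Pf4 at 0.517 to 4.02 CPM. The low counts of the other platelet genes limit what this list shows about platelets. The mean of the hypoxia list correlated with Hbb-bs at r = 0.73 and rho = 0.79 (permutation p adjusted over 9 relations 0.0134 and 0.00535). Without the 2 farthest libraries r was 0.545 (permutation p = 0.107), and after subtracting group means it was 0.661 (permutation p adjusted over 9 relations 0.171), so the relation did not pass in either form, with coefficients of the same sign.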

How the data were processed

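RNA was extracted from intracranial tumors and made into libraries with the NEBNext Ultra RNA kit, per the labels' protocols. The submitters' processing notes name TopHat2 2.0.12, Bowtie2 2.2.3, HTSeq 0.6.1 and the GRCm38 (mm10) genome. The labels and headers do not state the order of steps, the annotation release or any use of strand in counting. The deposited tables hold raw read counts and FPKM values made by the authors for 47069 Ensembl genes, of which 46488 matched a symbol. All 16062 genes with reads in every library gave 1 length (relative tolerance 1e-06) when FPKM was set against counts and total counts, so both tables hold the same reads. Near-identical globin copies can share reads; the rule by which the counting split them is not stated there either.

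Groups followed the labels. CPM values scaled counts to each library's total count. Fold changes came from edgeR 4.0.16 (R 4.3.3) with trimmed-mean (TMM) factors, the filterByExpr filter (minimum count 10, minimum total 15; 15925 genes kept, all 5 members among them) and the quasi-likelihood test, two-sided, over all 12 libraries as 4 group means, with Benjamini-Hochberg adjustment over all genes tested and a threshold of 0.05. The test was also run on counts simulated with the means and spread of these data. DESeq2 1.42.0 was an alternative, as were RLE size factors, no filter, summed copies, library sizes without the members, the compared groups alone and leaving out each library. Correlations used log2 CPM with a prior count of 2 and two-sided permutation tests of 100000 resamples. Shares carry Wilson 95% intervals. Promoters came from RefSeq tables (GRCm38.p6) and gene positions from GENCODE (GRCm38). Figures were drawn with matplotlib 3.10.9.

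The members and gene lists were chosen with earlier results of these data known. The text names all 5 members in every comparison, list genes among the 3 with the highest mean CPM of their list or past the threshold (at most the 5 with the smallest p), the 10 genes most like Hbb-bs, and defining red cell and platelet markers at or near 0, which were chosen after their counts were seen. Hmox1 and Tspan33 are named outside these rules, with their values known. Some genes of the lists are not reported here by name. The list of 18 liver genes was also added after values were seen.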

Additional observations from a re-analysis of the deposited data

Results flagged for a closer look

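None of the 5 hemoglobin-related genes passed the test of a difference between the therapy effects in mice with both tumors and in mice with an intracranial tumor only. Genes of the related lists did, by the interaction term (therapy effect in both tumors minus that in intracranial-only tumors, log2 scale, edgeR's quasi-likelihood test, adjusted p between 0.0321 and 0.0476). Among red cell genes these were Sptb at 4.05, Ank1 at 2.61, Car2 at 2.56, Xpo7 at -0.71, Lmo2 at 2.57 and Tfrc at -1.98. Among genes of hemoglobin and heme clearance they were Lrp1 at 1.69, Blvrb at 1.10, Slc48a1 at 0.65 and Fth1 at 0.88. Platelet genes were Gp1bb at 3.52 and Itgb3 at 1.26, and endothelial genes were Pecam1 at 1.11, Cldn5 at 3.59, Tie1 at 1.17 and Esam at 1.23. The neuron marker Snap25 stood at 7.35. Over all 15925 genes tested, 22% passed (12.1% above 0 and 9.93% below). Above 0 were 2 of 4 red cell membrane, 4 of 12 clearance, 2 of 4 platelet, 4 of 12 endothelial and 7 of 7 neuron genes tested, with 0 below. Of 7 erythroid regulators 1 was above and 1 below, and of 13 late erythroid genes 1 and 1. Of 8 heme synthesis genes 0 were above and 1 was below. These lists are small and were not tested as sets. Leaving out each library in turn, between 0 and 4365 genes passed this interaction test.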

How the results depend on the processing

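None of the 5 genes passed in any alternative, over 469 fitted values with a smallest adjusted p of 0.102, and 445 kept their direction. All 24 that turned lay in therapy against IgG in both tumors and in both tumors against intracranial only under therapy, where values lie near 0. Under therapy, Hba-a2 was at 0.016 with RLE size factors and at 0.006 with DESeq2. With copies summed, the beta row that stands for Hbb-bt was at -0.027 (therapy in both tumors) and -0.28 (both tumors under therapy). Leaving out each library, values for therapy in both tumors ran between -1.26 and 0.60 for Hba-a1, -0.87 and 0.66 for Hba-a2, -0.90 and 0.64 for Hbb-bs, -0.32 and 1.39 for Hbb-bt, and -0.81 and 1.498 for Alas2. For both tumors under therapy they ran between -1.71 and 0.61 for Hba-a1, -1.09 and 1.495 for Hba-a2, -1.16 and 0.99 for Hbb-bs, -0.45 and 1.61 for Hbb-bt, and -1.60 and 1.01 for Alas2. Without both-tumors IgG replicate 2 and intracranial-only IgG replicate 1, chosen after seeing the data, Hbb-bs was at 0.64 for therapy in both tumors. Genes called for therapy in both tumors numbered 0 with RLE size factors, without the filter, with the compared groups alone and without those 2 libraries, 3103 with DESeq2, and 0 to 2394 leaving out each library. For therapy in intracranial-only tumors they numbered 1025 with DESeq2, 818 with the compared groups alone, 853 without those 2 libraries and 0 to 1002 leaving out each library. Calls ranged between 4710 and 8128 for both tumors under therapy. For the interaction they ranged between 0 and 4365 leaving out each library, and DESeq2 gave 4715. With group means subtracted, r with Hbb-bs was -0.084 for the endothelial, -0.09 for the platelet, -0.059 for the red cell membrane and 0.66 for the hypoxia list. The cause of these differences was not tested. No paired analysis was possible because the labels give no shared replicate numbers. Globin counts of 0 to 10 reads in several libraries limit the precision of single values.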
